A study of Mus musculus with 15 samples.

Results

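The cytosolic ribosomal proteins are the protein subunits of the ribosomes that translate nuclear messages. Their mRNA levels were compared in the gastrocnemius, a mouse calf muscle in which fast fibers prevail. A probe set, the group of short probes that reads 1 transcript on the array, was taken as a member when the platform annotation gave it a single gene symbol beginning with Rpl or Rps and a digit, beginning with Rplp, or equal to Rpsa. Rps6k kinases and symbols containing -ps were left out. This rule took 100 of the 22690 probe sets of the MOE430A array, from 48 of the 12393 genes with a symbol of their own, 26 of the large and 22 of the small subunit, and 23 of these genes were read by more than 1 probe set. A further 102 probe sets carried a ribosomal protein symbol among several symbols and were kept apart, and 30 ribosomal protein genes were read only by those.

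Male C57BL/6NHsd mice carrying no stated mutation were housed singly, and 1 array was hybridized per mouse with no pooling. The 5 young mice (5 months) and the 5 old mice (25 months) were fed the normal diet of 84 kcal per week. The 5 old CR mice (25 months) had been kept on lifelong caloric restriction, with a caloric intake that differed from the normal diet by 26% and with added protein, vitamins and minerals. The normal diet was itself below free feeding, so no group was fed freely, and there was no young group on CR.

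Each cytosolic ribosome joins a small subunit, which decodes the message, to a large subunit, which forms the peptide bond, and each subunit holds many small basic proteins on a scaffold of ribosomal RNA. Most of these proteins are made in every cell and in balanced amounts. Their messages typically begin with a C followed by a run of pyrimidines (the 5' TOP element), through which the mTOR kinase and the RNA-binding protein Larp1 control their translation, and a few members have a relative (paralog) with a narrower expression. Ribosomal protein genes also have many processed pseudogenes, so probes for one gene can bind near-identical copies.

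The 30 bases around the RefSeq transcript start are shown for some members, 15 before the start and 15 from it on (build GRCm38.p6, 5' to 3' on the gene's strand). Rpl38 and Rplp2 are shown as members with the pyrimidine run at the start. Rpl35, Rpl41, Rplp0, Rpl3l and Rpl7l1 are shown because results below turn on them. Capitals mark the letters CTTTC.
Rpl38 (chr11:114668565-114668594, + strand): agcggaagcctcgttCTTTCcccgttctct
Rplp2 (chr7:141447636-141447665, + strand): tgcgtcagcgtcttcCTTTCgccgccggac
Rpl35 (chr2:39005117-39005146, - strand): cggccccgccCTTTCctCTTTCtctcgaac
Rpl41 (chr10:128549154-128549183, - strand): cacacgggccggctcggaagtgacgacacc
Rplp0 (chr5:115559452-115559481, + strand): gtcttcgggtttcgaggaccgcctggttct
Rpl3l (chr17:24727811-24727840, + strand): gagtgttctagctctgtcatttgacctctg
Rpl7l1 (chr17:46782642-46782671, - strand): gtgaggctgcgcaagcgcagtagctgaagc
In Rpl38 and Rplp2 the letters CTTTC began at the annotated first base of the transcript. In Rpl35 they occurred on both sides of the start. The windows of Rpl41, Rplp0, Rpl3l and Rpl7l1 did not hold them.

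Next are the 150 bases before the start for the members with a called difference, with CGGAAG (a core shared by many ETS factor sites) in either direction and CAGCTG (an E-box) in capitals.
Rpl35 (chr2:39005132-39005281, - strand): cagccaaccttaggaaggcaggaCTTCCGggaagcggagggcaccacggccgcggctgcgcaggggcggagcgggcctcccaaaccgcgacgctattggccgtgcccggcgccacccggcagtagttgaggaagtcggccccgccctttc
Rpl41 (chr10:128549169-128549318, - strand): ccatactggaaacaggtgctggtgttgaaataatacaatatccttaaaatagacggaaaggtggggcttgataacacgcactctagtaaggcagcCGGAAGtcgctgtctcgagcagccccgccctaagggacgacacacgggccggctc
Rpl3l (chr17:24727676-24727825, + strand): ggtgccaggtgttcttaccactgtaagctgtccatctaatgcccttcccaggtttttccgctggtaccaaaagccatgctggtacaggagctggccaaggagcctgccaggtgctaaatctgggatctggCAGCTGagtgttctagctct
Rpl7l1 (chr17:46782657-46782806, - strand): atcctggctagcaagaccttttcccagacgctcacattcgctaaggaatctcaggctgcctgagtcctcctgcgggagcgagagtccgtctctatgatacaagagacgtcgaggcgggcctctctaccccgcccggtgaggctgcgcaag
RefSeq gave promoter sequences for 42 of the 48 genes, with 50 starts, and all 32851 starts of the same table, noncoding genes included, serve as background. CTTTC, searched on the gene's strand within 50 bases of the start, stood in 21 of 50 member windows (42.0%), against 12.75% of all. CTCTTTC, which contains CTTTC, stood in 4 (8.0%), against 1.37%. CGGAAG on either strand stood in 30 of 50 windows from 250 bases before to 50 after the start (60.0%), against 16.85% of all. CAGCTG stood in 3 (6.0%), against 16.3% of all, and Rpl35 and the first of 2 annotated starts of Rpl3l were among these 3. These 4 motifs were chosen after the sequences around the starts had been looked at. A match describes the letters and does not show that a factor binds there.

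The deposited intensities are linear and scaled to the same trimmed mean on every array (500.0 after trimming 2% at each end). On that scale the median of the members' mean log2 intensity was 12.27, against 7.72 for the 22626 probe sets tested, and 57 of the 100 members reached a mean log2 of 12, as did 3.13% of all probe sets. Of the members, 81 (43 genes) were among the brightest 11000 probe sets. Their log2 values spread less within groups (median SD 0.18) than those of all brightest probe sets (0.259), while the 19 dimmer members spread more (0.758). The annotation of the array marks probe sets that may bind related sequences with the suffix _x_at, which 40.0% of members carried, against 6.68% of all probe sets. The probes read the 3' end of the transcript, and levels of different probe sets cannot be ranked against each other.

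Several measures of the samples moved with the groups and stand beside every result that follows. The difference between the 3' and 5' control probe sets, which grows as RNA or cDNA is shortened, was -0.04 ± 0.19 on the log2 scale for Gapdh in young, 0.25 ± 0.10 in old and -0.21 ± 0.12 in old CR mice (SD, n = 5). For Actb it was -0.32 ± 0.09, 0.01 ± 0.11 and -0.38 ± 0.09. Old CR differed from old for both (exact permutation test, two-sided, adjusted p = 0.0159 for each over 6 tests) and old from young for Actb (exact permutation test, adjusted p = 0.0159), while for Gapdh old against young gave an exact adjusted p of 0.0595. Young replicate 3 had the highest Gapdh value of the young arrays, 0.278. Of 16 muscle fiber markers, all measured, 1 had a higher mean in old than in young and 16 had a higher mean in old CR than in old mice. Their summed intensity was 361465 to 425921 in young, 285249 to 396338 in old and 338907 to 468948 in old CR mice. Of 12 measured macrophage and leukocyte markers 3 were higher in old CR than in old mice, and their sum was 6039 to 13863 in young, 10122 to 16239 in old and 5685 to 7444 in old CR mice. The summed markers of adipocytes, B cells, fibroblasts, endothelium, red cells and Schwann cells overlapped between old and old CR mice. In that comparison limma called Cd74 (-1.35) and H2-Aa (-2.01) of the leukocyte list and Vwf (-1.02) of the endothelial list lower and Myh1 (0.52) of the fiber list higher (log2 differences). Between old CR and young mice the sums of fibroblast and tendon markers did not overlap, 19221 to 26999 against 28449.5 to 43977, nor did those of Schwann cells, 3907 to 5916 against 6159 to 7517, and Col1a2 was called lower in old CR mice (-1.49). The part of these measures in the results was not tested.

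On the deposited scale, the ribosomal protein messages as a set were slightly higher in old CR mice than in either group on the normal diet. On that scale they differed little between young and old. For each array the median deviation of the 100 members from their own means over the 15 arrays was taken on the log2 scale. In young mice it was -0.070, -0.059, -0.046, -0.068 and -0.024. In old mice it was -0.094, 0.016, -0.081, -0.040 and 0.091. In old CR mice it was 0.080, 0.199, 0.130, 0.061 and 0.077. All 5 old CR arrays lay above all 5 young arrays and above 4 of the 5 old arrays, and old replicate 5 lay within the old CR range. In bulk muscle, fewer cells of a type and less RNA per cell cannot be told apart.

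**Figure D1:**
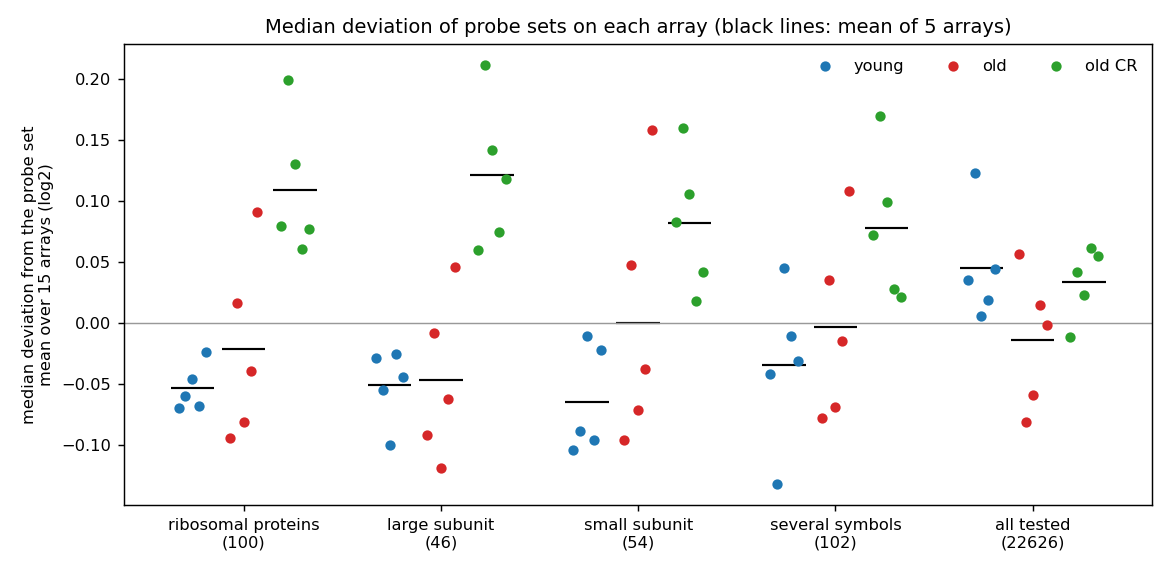
Median deviation (log2, vertical axis) of the probe sets of 5 sets on each of the 15 arrays from their means over all arrays. Points are arrays, colored by group, and black lines are means of 5 arrays. For the 100 ribosomal protein probe sets the old CR arrays sit between 0.061 and 0.199 and the young arrays between -0.070 and -0.024.

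The medians of the log2 differences were small. In old CR against old mice the median over the members was 0.15, against 0.06 over all probe sets tested. For old CR against young mice it was 0.18, against -0.01 over all. For old against young mice it was 0.04, against -0.06 over all. Large-subunit members had medians of 0.15, 0.18 and 0.02 in these comparisons and small-subunit members 0.13, 0.14 and 0.06. The 652 other probe sets with a mean log2 of at least 12, a set chosen after the values had been seen, had 0.10, 0.04 and -0.05. The 102 probe sets with several symbols had 0.10, 0.12 and 0.03. The old mice stand in 2 of the comparisons and the old CR mice in 2, so the comparisons are not independent of each other. With each array centered on its median, the median over members in old CR against old mice fell to 0.06 (all probe sets -0.03). With quantile normalization it fell to 0.05 (all probe sets -0.01). In old against young mice it rose to 0.13 with median centering (all probe sets 0.03) and to 0.08 with quantile normalization (all probe sets -0.003). The sizes of these differences, and which of them was larger, thus depended on the scaling.

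**Figure D2:**
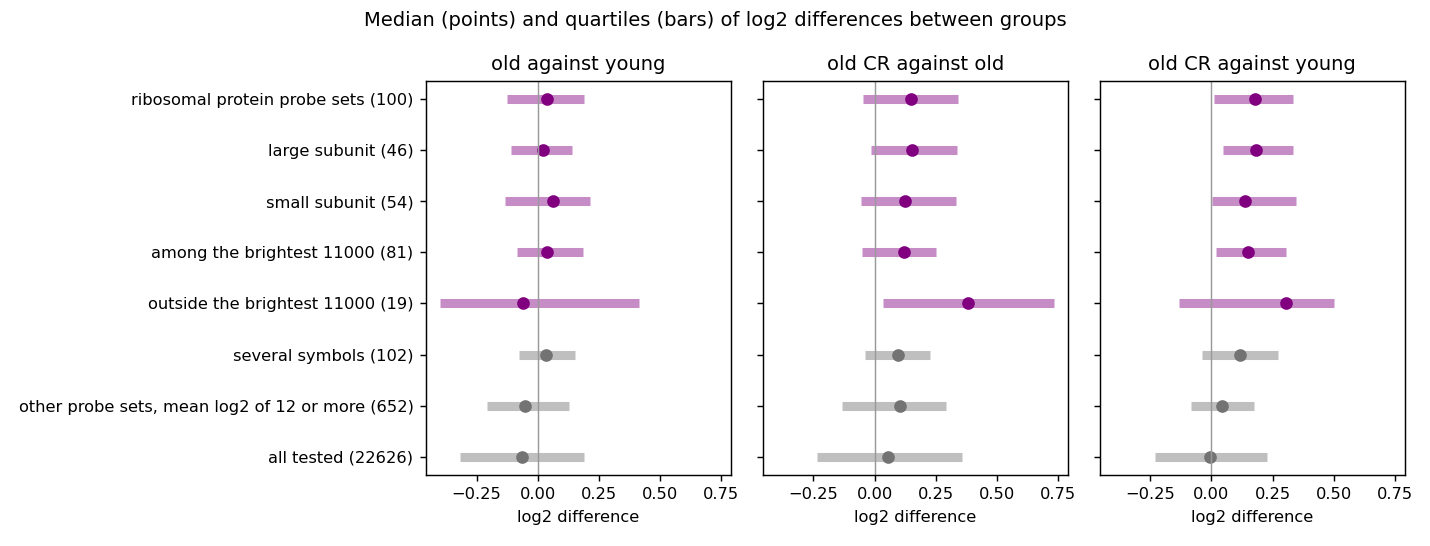
Medians (points) and quartiles (bars) of log2 differences (horizontal axis) for the ribosomal protein probe sets and their subsets (purple) and for comparison sets (gray), with the number of probe sets in parentheses. In old CR against young mice the median of the 100 members is 0.18 and that of all tested probe sets is -0.01.

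Calls were made with limma at a Benjamini-Hochberg adjusted p under 0.05 over all 22626 probe sets. In old CR against old mice 5 members rose, a background of 2.7% of all probe sets, and 0 fell, against 2.17% of all. Old CR and old arrays did not overlap for 14 higher members (4.86% of all probe sets) and 1 lower member (4.04% of all). All 14 were among the brightest 11000 probe sets. In a fit of those 11000 alone, 13.6% of the 81 members there were called, against 16.2% of all. The mean was higher in old CR mice for 69 of 100 members, against 55.3% of all probe sets. Among the 652 other probe sets with a mean log2 of at least 12 that share was 65.0%, close to that of the members. The 5 that rose came from 4 genes, Rpl3l, Rpl7l1, Rpl41 and Rpl35, and Rpl7l1, Rpl41 and Rpl35 had further probe sets that were not called. For each of the 5, the difference kept its sign in every alternative of the fit, and the call was lost once the 3' minus 5' difference entered the fit as a covariate, where limma called 0 of all probe sets. In that fit the differences were 0.38 for Rpl3l, 0.56 for Rpl7l1, 0.94 for Rpl41, and 0.67 and 0.47 for the 2 Rpl35 probe sets. The Actb part of the covariate ran from -0.15 to 0.15 in old and from -0.49 to -0.24 in old CR mice, without overlap. That fit therefore cannot separate the covariate from the group, and its part in these differences was not tested.

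In old against young mice 0 members rose, against 0.119% of all probe sets, and 1 fell, against 0.146% of all. At an unadjusted p under 0.05, 4 were higher (6.24% of all) and 6 lower (9.25% of all). The groups did not overlap for 1 higher member (1.61% of all) and 3 lower members (2% of all). The mean was higher in old mice for 58 of 100 members, against 43% of all probe sets and 39.9% of the 652 other bright ones. Between old CR and young mice limma called 0 members higher, against 0.0486% of all probe sets, and 0 lower, against 0.0398%. At an unadjusted p under 0.05, 21 were higher (5.83% of all) and 0 were lower (6.26% of all). The groups did not overlap for 10 higher members (1.68% of all) and for 0 lower members (1.89% of all). The mean was higher in old CR mice for 77 of 100 members, against 49.2% of all and 56.1% of the 652 other bright ones. Among the brightest 11000 probe sets limma called 1 member in old CR against young mice (1.93% of those 11000 were called), and with a variance trend and robust eBayes it called 3 (0.667% of all).

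**Figure D3:**
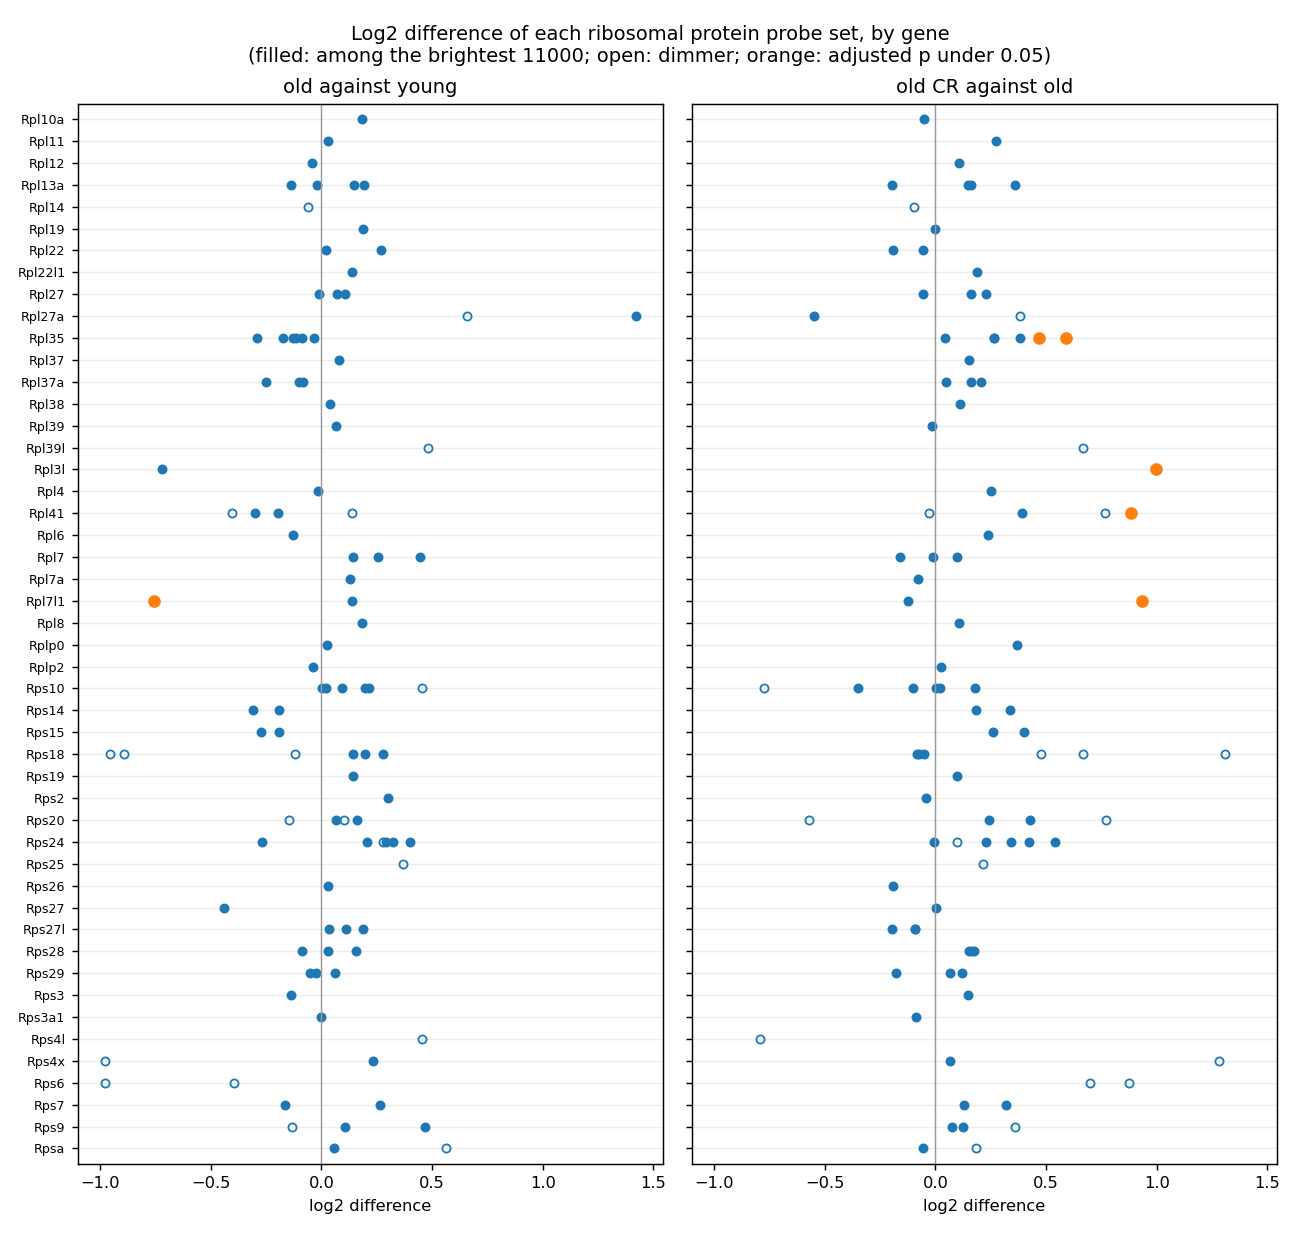
Log2 difference (horizontal axis) of each of the 100 probe sets, 1 row per gene, for old against young (left) and old CR against old mice (right). Filled points are among the brightest 11000 probe sets, open points are dimmer, and orange marks an adjusted p under 0.05. The orange points on the right are 5 probe sets of 4 genes, and Rpl7l1 on the left is the 1 call with age.

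The largest differences with no overlap were in the paralogs Rpl3l and Rpl7l1, which are members by symbol. Rpl3l encodes the form of the large-subunit protein Rpl3 found in skeletal and heart muscle. Its probe set 1449398_at read 7119.8, 9086, 5351, 8014 and 7785 in young mice. It read 4524, 4692, 4782, 3869.9 and 4519 in old mice and 8169, 6909, 10978, 8534 and 10621 in old CR mice. All old arrays were below all young and all old CR arrays, and young and old CR arrays overlapped. Rpl3l rose in old CR against old mice, from 4477 ± 358 to 9042 ± 1718 (SD, n = 5 each). The log2 difference was 0.997 (SE 0.16, limma, adjusted p = 0.00791). The difference of old from young mice was -0.72 (SE 0.16, adjusted p = 0.0729) and was not called, although it was called among the brightest 11000 probe sets, with a variance trend, with array weights and without young replicate 3 (adjusted p = 0.00756). With the 3' minus 5' covariate the age difference of Rpl3l was -0.27 (adjusted p = 0.893) and the CR difference 0.38 (adjusted p = 0.872). Rpl3 itself was not among the members.

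Rpl7l1 is a relative of Rpl7 of the large subunit, and was read by 2 probe sets that did not move together. Its probe set 1426386_at read 560.4, 527, 356, 468 and 539 in young mice. It read 275, 277, 299, 260.5 and 324 in old and 549, 537, 507, 654 and 501 in old CR mice. Again every old array lay below every other array. It was the 1 member that fell with age, by a log2 difference of -0.76 (SE 0.14, limma, adjusted p = 0.0455), and it rose in old CR against old mice by 0.93 (SE 0.14, adjusted p = 0.0057). The age call was narrow, since leaving out any array but young replicate 3 took its adjusted p over the threshold (0.0561 to 0.118, and 0.00152 without young replicate 3). With the 3' minus 5' covariate its age difference was -0.48 (adjusted p = 0.765) and its CR difference 0.56 (adjusted p = 0.788). The second probe set, 1452049_at, read 269.6, 362, 303, 403 and 261 in young, 312, 374, 388, 261 and 427 in old and 269, 300.1, 352, 404 and 285 in old CR mice. These groups overlapped, and the log2 differences were 0.14 for old against young and -0.12 for old CR against old mice.

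The other paralogs did not pass the test. Rpl22l1, a relative of Rpl22, had a log2 difference of 0.19 (SE 0.15) in old CR against old mice, and Rpl22, which binds RNA and is dispensable for most translation, had -0.06 (SE 0.17). Rps27l, a p53-responsive relative of Rps27, had 0.03 (SE 0.13) with age and -0.20 (SE 0.13) with CR at its brightest probe set, and all 3 of its probe sets lay between -0.20 and -0.09 with CR. Rps27 had -0.44 (SE 0.32) with age. Rpl39l, a form of Rpl39 known from testis, was dim, with means of 16.4, 24.5 and 32.1 in young, old and old CR mice. Rps4l, a relative of Rps4x, was the 1 member whose old CR arrays all lay below the old arrays, 20.3, 22.4, 24.1, 12.7 and 20.4 against 27.1, 63.4, 26.1, 30.8 and 32.3. It was dim, its adjusted p was 0.141 (limma), and it was named after its values had been seen.

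Rpl35 and Rpl41 led the members of the common large subunit. Rpl35 lies near the exit of the tunnel through which the new peptide leaves. Its probe set 1454856_x_at read 4563, 5153, 4792, 4507 and 3859 in young mice. It read 3686, 4866, 3668, 4057 and 4046 in old and 6190.3, 6578, 6489, 5964 and 5253 in old CR mice. All old CR arrays were above all arrays of both other groups, which overlapped. It rose in old CR against old mice by a log2 difference of 0.59 (SE 0.12, limma, adjusted p = 0.0183). A second probe set, 1416243_a_at, rose from 4138 ± 387 to 5719.7 ± 552, by 0.47 (SE 0.11, adjusted p = 0.0331), but was not called with median centering, in a fit of the 2 groups alone or without any one of 8 of the 10 old and old CR arrays. The 6 probe sets of Rpl35 ranged from 0.04 to 0.59, the lowest being 1454833_at, and 4 of them had no overlap between old CR and old mice. Those 4 also had no overlap between old CR and young mice, and their differences there ran from 0.15 to 0.42, with 0 called.

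Rpl41 encodes the smallest ribosomal protein, a short basic peptide. Its probe set 1422623_x_at read 5295, 7229.6, 6047, 7042 and 6332 in young mice. It read 4551, 5761, 6194, 4176 and 5354 in old and 10714, 8586, 10135, 12137 and 6907 in old CR mice. The old CR arrays were above all old arrays, and 1 of them lay within the young range. It rose by a log2 difference of 0.89 in old CR against old mice (SE 0.17, limma, adjusted p = 0.0143), and old against young mice gave -0.30 (SE 0.17). A second bright probe set, 1455578_x_at, had 0.39 with CR (SE 0.18), and the 2 dim ones had 0.77 and -0.03. Only the first of these 4 probe sets was called.

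The acidic stalk of the large subunit, which recruits the elongation factors, was read at its base and at one of its arms, and these differed in size. Rplp0, the base, read 11225, 12619, 10310.1, 13911 and 11861 in young mice. It read 11831, 12968, 12649.5, 10949 and 12397 in old and 16169, 15697, 16014, 16809 and 13894 in old CR mice. Old CR arrays were above all old arrays, and 1 of them fell within the young range. From young mice the log2 difference of old CR mice was 0.40 (SE 0.11, limma, adjusted p = 0.173), called only with a variance trend and robust eBayes. The log2 difference of old CR from old mice was 0.37 (SE 0.11, limma, adjusted p = 0.07), not a call in the main fit. It was called among the brightest 11000 probe sets (16.2% of those were called), with a variance trend and without young replicate 3. Rplp2, an arm of the stalk, had 0.03 (SE 0.10), from 14082 ± 1495 to 14299 ± 803, and its groups overlapped. The difference between these 2 was not tested. Rplp0 is often used as an internal reference in RT-PCR, and old differed from young mice by 0.03 (SE 0.11) at this probe set.

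**Figure D4:**
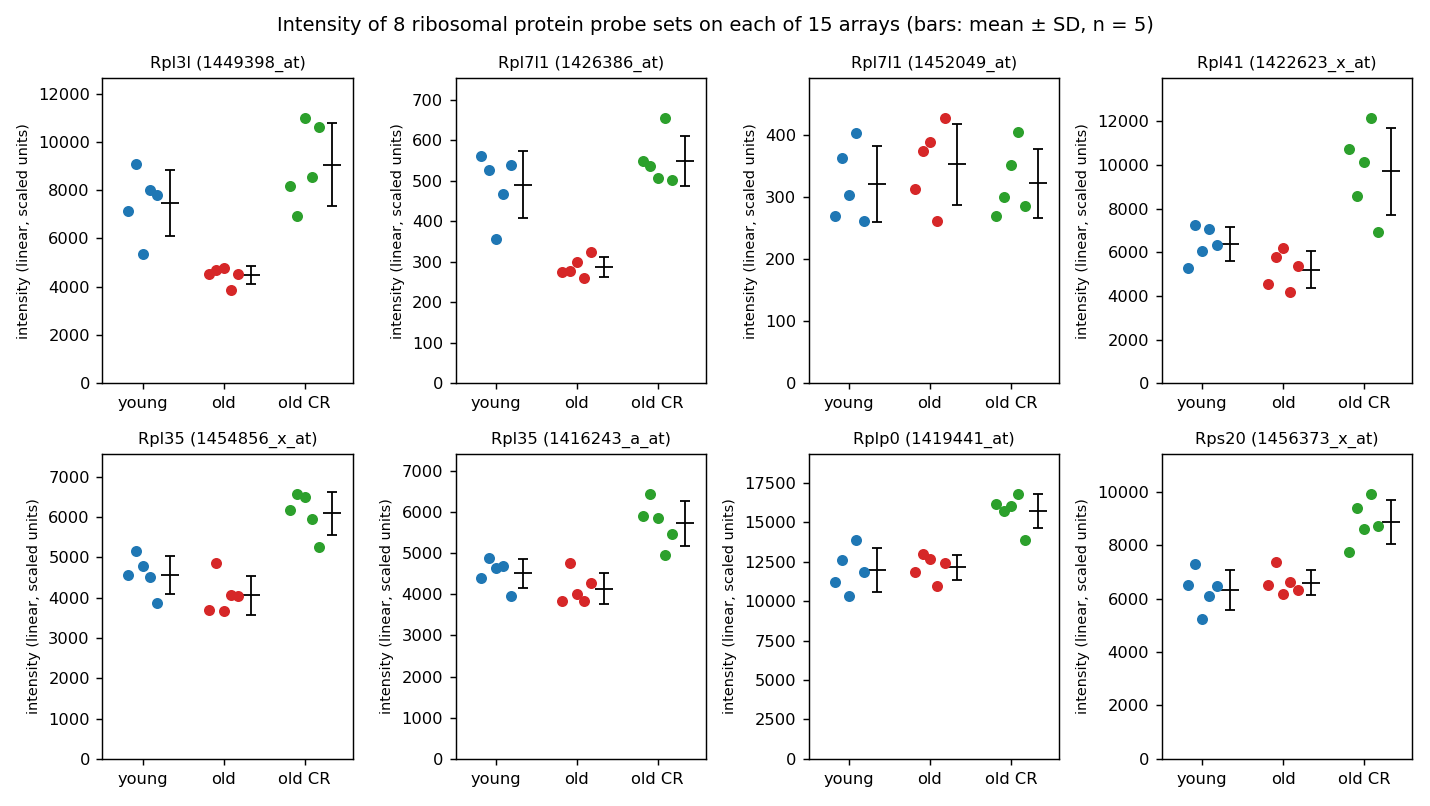
Linear intensity (vertical axis, scaled units, each panel with its own axis from 0) of 8 probe sets on the 15 arrays. Points are arrays and black bars are mean ± SD (n = 5). The old arrays of Rpl3l lie between 3870 and 4782, below all other arrays, whereas the 3 groups of the second Rpl7l1 probe set overlap.

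Rpl11, which with Rpl5 can bind Mdm2 and so stabilize p53 when ribosome assembly is disturbed, read 4213, 4281, 4006, 4839 and 4000.1 in old and 5245, 5173, 5361, 5029 and 4944 in old CR mice. It read 4089.6, 4015, 4082, 4274 and 4369.8 in young mice. All old CR arrays were above all others, but the log2 difference was small, 0.27 against old (SE 0.09, limma, adjusted p = 0.106) and 0.31 against young mice (SE 0.09, adjusted p = 0.212). With a variance trend and robust eBayes, Rpl11 was called in old CR against old mice (7.36% of all probe sets were). Rpl5 was not among the members. Rpl13a, a protein of the subunit surface that also takes part in silencing inflammatory messages, was called in no comparison of the main fit. Its brightest probe set had means of 7836 ± 478, 8657 ± 192 and 9686 ± 441 in young, old and old CR mice. The old CR arrays of that probe set, from 9251 upwards, were above the arrays of both other groups. The 4 probe sets of Rpl13a had differences of -0.20 to 0.36 with CR. Of these, 1417608_a_at was called in old CR against old mice among the brightest 11000 probe sets (16.2% of those were called) and with the variance trend. Rpl10a, part of the L1 stalk near the exit site, was the 1 member whose old arrays all lay above the young arrays, 8599.6 to 9096 against 7225 to 8493, with a log2 difference of 0.18 (SE 0.11, limma, adjusted p = 0.457). Rpl27a had the largest age difference of any member, 1.42 (SE 0.31, limma, adjusted p = 0.0668), with 136, 108, 276, 138 and 139 in young and 197, 385, 410.5, 496 and 698 in old mice. The highest young array overlapped the old arrays, and that array was young replicate 3. Without it the adjusted p was 0.00676, and among the brightest 11000 probe sets it was 0.0172. These values are of 1437729_at. The second Rpl27a probe set, 1419799_at, was dim and had 0.66 (SE 0.61) with age. With CR the 2 probe sets had opposite signs, -0.55 at the first and 0.38 at the second.

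In the small subunit no probe set was called in any comparison in the main limma fit (all probe sets and arrays, no trend, weights or pseudocount). With a variance trend and robust eBayes, Rps14 (1437706_x_at), Rps15 (1416089_at) and Rps20 (1456373_x_at) were called in old CR against old mice (7.36% of all). That fit also called Rps20 (1456373_x_at and 1456436_x_at) in old CR against young mice (0.667% of all). Array weights or a pseudocount of 16 called Rps20 (1456373_x_at) in old CR against old mice. Rps20, in the head of the subunit, came closest in the main fit. Its probe set 1456373_x_at read 6524, 7315, 5236, 6108 and 6492 in young mice. It read 6508, 7359.6, 6165, 6641 and 6306 in old and 7750.2, 9379, 8627, 9924 and 8733 in old CR mice. The old CR arrays were above all arrays of both other groups. The log2 difference was 0.43 against old (SE 0.12, limma, adjusted p = 0.051) and 0.49 against young mice (SE 0.12, adjusted p = 0.122). The latter was the smallest adjusted p of any member in old CR against young mice. The second bright probe set of Rps20, 1456436_x_at, had 0.24 and 0.41, and its 2 dim ones had -0.57 and 0.77 against old mice.

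Rps24 and Rps19, both genes in which loss of 1 copy causes Diamond-Blackfan anemia in people, and Rps14 of the platform each separated some of the groups. Rps24 (1436064_x_at) had means of 8555 ± 1723, 9725 ± 733 and 11356 ± 471 in young, old and old CR mice, and its old CR arrays were above all others. Its log2 difference was 0.23 from old and 0.43 from young mice (SE 0.14 for both), and neither was called. The 6 probe sets of Rps24 ranged from -0.01 to 0.54 against old and from 0.07 to 0.86 against young mice. Rps19 had 0.10 and 0.24 (SE 0.10), without overlap only against young mice. Rps14 (1437706_x_at) read 10388, 11075, 9707, 11097 and 11291 in young, 8885, 8852, 8729.5, 7468 and 9285 in old and 9940.4, 10739, 12144, 10621 and 11180.0 in old CR mice. Its old arrays were below all arrays of both other groups, with a log2 difference of -0.31 with age (SE 0.10, limma, adjusted p = 0.168) and 0.34 with CR (adjusted p = 0.0755). Its second probe set, 1436586_x_at, had -0.19 and 0.18, and those groups overlapped.

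Other small-subunit members varied little between groups or were dim. Rpsa, also known as a laminin receptor precursor, had 6837 ± 535, 7123 ± 839 and 6828 ± 441 at its brighter probe set, with log2 differences of 0.06 and -0.06 (SE 0.11). Rps28 had -0.09 with age and 0.15 with CR (SE 0.11), and Rpl38 of the large subunit, which favors the translation of particular messages during development, had 0.04 and 0.11 (SE 0.09). Rps2 had 0.30 with age (SE 0.26), where young replicate 4 read 5648 and the other young arrays 15409.9 or more. Rps6, the substrate of S6 kinase, was read only by dim probe sets, of which the brighter had 225 ± 56.8, 140.5 ± 89.2 and 207 ± 39.3, with groups that overlapped.

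Probe sets of one gene did not always give the same difference, and they are readings of the same RNA, not replicates. The range was widest for Rps18, Rps20 and Rps4x. For Rps18 the 3 bright probe sets lay at -0.09, -0.07 and -0.05 with CR, whereas the 3 dim ones, with group means under 70, lay at 0.48, 0.67 and 1.31. For Rps4x, the X-linked form of Rps4, the bright probe set had 0.07 (SE 0.16) and the dim one 1.28 (SE 0.38), from a mean of 12.6 in old to 30.5 in old CR mice. In these 3 genes the wide values thus came from probe sets outside the brightest 11000, whose spread within groups was larger. Rpl7l1 had the next widest range, and both of its probe sets were among the brightest 11000. Over the 81 brighter members the median was 0.12 in old CR against old mice, and over the 58 members without _x_at or _s_at suffixes it was 0.11.

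Other genes of the translation pathway were measured from lists written by symbol, each gene by its brightest probe set, and few passed the test. Fau, which encodes a ribosomal protein fused to a ubiquitin-like one, had 0.07 with age and 0.22 with CR (SE 0.12). Of 18 measured translation factors and other proteins with TOP messages, 1 rose with age (0.119% of all probe sets did) and 2 rose in old CR against old mice (2.7% of all). Npm1, a nucleolar chaperone, rose with age from 1372 ± 235 to 2637 ± 478 (log2 difference 0.94, SE 0.17, limma, adjusted p = 0.0417). Eef1d, part of the elongation factor exchange complex, rose with CR from 1661 ± 148 to 2742 ± 174 (0.73, SE 0.14, adjusted p = 0.0161). Btf3, a subunit of the complex that shields new peptides, rose with CR from 1719 ± 157 to 2555 ± 93.7 (0.58, SE 0.10, adjusted p = 0.0113). The median of these 18 was 0.12 with age and -0.05 with CR, against 0.04 and 0.15 for the ribosomal proteins and -0.06 and 0.06 for all probe sets.

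Of 42 measured ribosome assembly factors, 3 rose in old CR against old mice (2.7% of all probe sets), 0 fell (2.17% of all), and 0 were called in the other comparisons. Fbl, the methyltransferase of nucleolar RNA, rose from 366 ± 32.1 to 643 ± 75.2 (log2 difference 0.81, SE 0.18, limma, adjusted p = 0.0233). Nop10, of the pseudouridylation complex, rose by 0.61 (SE 0.15, adjusted p = 0.036). Rrp9, of the U3 particle, rose by 1.03 (SE 0.27, adjusted p = 0.0419). The median of the 42 was 0.07 with CR and -0.08 with age. Of 18 measured genes of the mTOR and S6 kinase pathway 0 were called by limma in any comparison, with medians of 0.17 with age and -0.28 with CR. That list was written with activators and inhibitors of the pathway alike, so its medians give no direction of pathway activity. Mtor itself had -0.55 (SE 0.19, adjusted p = 0.109) in old CR against old mice.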

How the data were processed

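Poly(A)+ RNA from the gastrocnemius of each mouse was labelled and hybridized to MOE430A arrays, and the authors averaged 2 scans of each array. The intensity values were deposited by the authors as 1 linear number per probe set and array, and the submitters' processing notes name MAS5 and RMA without versions or roles. The trimmed mean of every array is 500.0, while array medians run from 200.6 to 243.5, so the arrays share a scale but do not have the identical distributions that quantile normalization gives. No detection calls were used. All value columns were mapped to samples by the labels.

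The log2 of each intensity was taken without adding a pseudocount. After removal of 64 control probe sets, limma 3.58.1 (R 4.3.3) fitted the other 22626 in 1 model of the 3 groups with no covariate (eBayes without a trend), and p-values were adjusted by the Benjamini-Hochberg method within each comparison. Log2 differences are first group minus second, with the limma SE. The prior degrees of freedom were 2.17. Single values were compared with two-sided exact permutation tests, whose smallest p with 5 against 5 arrays is 0.00794, run in SciPy 1.17.1 (Python 3.11.15). Tables were handled in pandas 2.3.3 and NumPy 2.4.6, and plots drawn in Matplotlib 3.10.9. On simulated data for old against young with 22626 probe sets, 44% of 2-fold and 82% of 4-fold changes were recovered. The changed probe sets were drawn at random from all of these, so the shares do not give the recovery for the members. Replicates are separate mice.

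The annotation gave 1 symbol to 20393 probe sets, several to 691 and none to 1606. All 48 member genes matched RefSeq by gene ID. Promoter sequences are RefSeq's (GRCm38.p6). A longer motif was also searched and is not reported, since no file used here holds its letters. The members, the gene lists and the tests were chosen with earlier results of these data known, so no test of the members as a set was run.

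Named were all members called, the 5 largest differences in each direction per comparison without overlap among the brightest 11000 probe sets, the 3 genes whose probe sets disagreed most, the 3 members with the highest and the 3 with the lowest mean intensity, and a written list of genes by their brightest probe set, in all 39 probe sets of 27 genes. Of the other lists, members called and up to 3 with the smallest p could be named. Alternatives were the brightest 11000 probe sets, median centering, quantile normalization, a fit of the 2 groups compared, a variance trend with robust eBayes, weights per array, a replicate block, a 3' minus 5' covariate (mean of Gapdh and Actb), a pseudocount of 16, an adjusted p under 0.10, leaving out each array, and 3 ways of choosing probe sets. A further pair, with probe sets of several symbols and with members among the brightest only, was added after seeing the data.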

Additional observations from a re-analysis of the deposited data

Results flagged for a closer look

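In each group of 5 arrays, the gap between the highest or lowest log2 value and its nearest neighbor was divided by the range of the group. Of 126 group values of the named probe sets, the member median and the 3' minus 5' differences, 15 had a ratio above the critical value of Dixon's test, and chance flags about 5% (1 in 20 groups). The ratios below are of log2 values, and the intensities are linear. Explanations were not tested.

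Old replicate 5 stood above the other old arrays in 3 members. Rpl38 read 16010.4 against 14267 to 14688 (ratio 0.748). Rplp2 read 16732 against 13112 to 13675 (0.828). Rpsa read 8601 against 6616 to 6993 (0.789). Old replicate 4 stood below the other old arrays in Rpl3l and Rps14. Rpl3l read 3869.9 against 4519 to 4782 (0.733), and Rps14 read 7468 against 8729.5 to 9285 (0.717). Leaving out old replicate 4 gave Rpl3l a log2 difference of 0.95 in old CR against old mice (limma, adjusted p = 0.0201).

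Young replicate 3, the young array with the highest Gapdh 3' minus 5' difference, stood above the other young arrays in Rpl27a, at 276 against 108 to 139 (0.73), and in Rps18 (1448739_x_at), at 10987 against 9119 to 9252 (0.922). Rps2 read 5648 on young replicate 4 against 15409.9 to 17575 (0.884). On old CR replicate 2, Rps2 read 13881 against 16484 to 17212 (0.799) and Rps4x read 8480.0 against 11444 to 12775 (0.731). Rpl22l1 read 4509 on old CR replicate 3 against 3419 to 3685 (0.729).

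The remaining 4 were dim probe sets. Rps18 (1421837_at) read 28.7 on old CR replicate 6 against 52.0 to 63.1 (0.755), and Rps18 (1450390_x_at) read 13.6 on young replicate 1 against 49.2 to 64.3 (0.827). Rps20 (1450417_a_at) read 63.5 on old replicate 3 against 22.5 to 25.6 (0.874), and Rps9 read 57.6 on young replicate 5 against 8.24 to 13.7 (0.74).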

How the results depend on the processing

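The number of members called moved with the processing, and so did the number of all probe sets called. In old against young mice (1 call) limma called 3 members among the brightest 11000 probe sets (3.7% of 81 members, against 5.33% of all in that fit), with a variance trend and robust eBayes (3% of members, 1.85% of all), with array weights (3.4% of all) and at an adjusted p under 0.10 (1.68% of all), and 0 with median centering, quantile normalization, a fit of the 2 groups alone, the replicate block and the 3' minus 5' covariate. Leaving out 1 array gave 0 to 3 calls, with 3 (Rpl7l1, Rpl3l and Rpl27a) without young replicate 3 (4.72% of all), 1 (Rpl27a in place of Rpl7l1) without old replicate 1 and 0 without any of the other 13. In old CR against old mice (5 calls) it called 11 among the brightest 11000 probe sets (13.6% of 81 members, against 16.2% of all in that fit), 13 with the trend (7.36% of all), 10 at an adjusted p under 0.10 (10.1% of all), and 0 with the replicate block and with the covariate. The 11 and the 13 contain all 5. Leaving out 1 array gave 4 to 8, with 8 without young replicate 3 (7.32% of all). In old CR against young mice (0 calls) it called 1 among the brightest 11000 (1.93% of all in that fit) and 3 with the trend (0.667% of all). The covariate and the block cost calls over all probe sets too, since limma then called 0 and 4 of 22626 in old CR against old mice, against 1102 without them.

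The replicate numbers did not pair the samples. Correlations of the deviations of same-numbered arrays were -0.28 to 0.09, so a call lost with the replicate block is not read as a weaker effect.

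The member median in old against young mice was 0.13 with median centering (all probe sets 0.03). Between old CR and old mice it was 0.0597 with median centering and 0.0521 with quantile normalization. Between old CR and young mice it was 0.11 with quantile normalization and 0.12 without _x_at and _s_at probe sets. Other alternatives moved these medians by less than the SD between arrays (0.056). The Gapdh 3' minus 5' difference of old from young mice was 0.25 to 0.37 when 1 array was left out, and without young replicate 3 it passed the exact permutation test (0.37, adjusted p = 0.0238).

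Of 117 named differences, 29 were called, had no overlap or had an unadjusted p under 0.01, and none of these changed sign in an alternative. The 4 other member values without overlap, of Rps4l, Rpl35 (1434231_x_at, in 2 comparisons) and Rps24 (1453362_x_at), did not change sign either. The other 88 are given with no test. Their signs were first compared as well, and 45 of them changed sign in at least 1 alternative, in 105 of 2083 alternative values, 52 of these not from leaving out an array. This division was made after those counts had been seen, and the directions of the 88 should not be read. The cause of these changes was not tested. The number of arrays and the spread of dim probe sets limit what can be called.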
